A study of Homo sapiens with 12 samples.

Results

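The genes described here were 7 cell surface proteoglycans, the syndecans SDC1, SDC2, SDC3 and SDC4 and the glypicans GPC1, GPC4 and GPC6, of 58051 genes in the count table. They were chosen by gene symbol. SDC4 was put among them because its counts were high with siNELFA and in the double knockdown, so all values of SDC4 are a description with no test. In every comparison, 6 of the 7 genes passed the filter on low counts, and GPC4 had no count in any library. The tests below therefore cover 5 genes, SDC1, SDC2, SDC3, GPC1 and GPC6.

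Syndecans cross the plasma membrane, whereas glypicans are held to its outer face by a lipid anchor. Both carry long chains of heparan sulfate, which bind growth factors, chemokines and matrix proteins at the cell surface, and syndecans also bind the cytoskeleton through short cytoplasmic tails. In carcinoma cells, the best known member is SDC1, an epithelial syndecan, and SDC4 is known as a component of focal adhesions.

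The cells were MDA-MB-231, a triple-negative breast cancer line with mesenchymal features. All received an siRNA pool at 50 to 100 nM with a lipid reagent, in 4 groups of 3 libraries each. The siControl group received a non-targeting pool, the siNELFA group a pool against NELFA, a subunit of the NELF complex that holds RNA polymerase II close to gene starts, the siYAP group a pool against the co-activator YAP, and the siNELFA+siYAP group both. RNA was taken at 48 h and 72 h according to the labels, which do not say which library is which, whereas the paper's methods give 72 h for the sequenced RNA. The methods call the replicates independent biological ones, but the library names of siNELFA+siYAP share a single number followed by an index, so p-values may measure only the spread between these libraries.

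Totals per library ran from 9608145 to 18803104 counts, and the members with counts had between 88 and 23643 counts in a library. NELFA reached 32.2% of its siControl mean with siNELFA and 26.1% with both siRNA pools, and YAP1 reached 15.6% with siYAP and 15.2% with both. VIM, CD44, AXL and EGFR were at 76.4 TPM or more in all 12 libraries, whereas ESR1, PGR, FOXA1, PTPRC and CDH5 had at most 6 counts in any library. The libraries numbered 1 of siControl, siNELFA and siYAP stood apart. Their biological coefficients of variation over 3 libraries were 0.370, 0.358 and 0.371, against 0.126, 0.156 and 0.149 between replicates 2 and 3, and siNELFA+siYAP had 0.0619. CDH1, an epithelial cadherin that this line hardly expresses, had 169 to 599 counts in those 3 libraries and 0 to 17 in the other 9, and EPCAM had 154 to 197 against 60 to 146. The luminal markers GATA3 and ERBB2 overlapped, with 88 to 111 against 58 to 127 counts and 422 to 751 against 591 to 1474, and so did PECAM1, with 57 to 82 against 30 to 85. VIM had 10961 to 16452 counts against 20062 to 32883, AXL 7694 to 14558 against 15743 to 25672 and EGFR 5097 to 6366 against 7675 to 15043, so these 3 were lower in the libraries numbered 1, whereas CD44 overlapped. These are raw counts, not scaled to the totals. The part of the libraries numbered 1 in the results was not tested, and the members' fold changes against siControl are given with and without them.

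SDC4 (ENSG00000124145) lies on the minus strand of chromosome 20 at chr20:45325288-45348424 (GRCh38). The 250 bases before its start, chr20:45348425-45348674 in GRCh38.p14 from RefSeq, are printed because NELF acts near gene starts and SDC4 is the member by which the group was chosen. Capitals mark a match to the NF-kB consensus, 97 bases before the start, and a TATAA, 31 bases before it. Both were read 5′ to 3′ on the gene's own strand.
SDC4: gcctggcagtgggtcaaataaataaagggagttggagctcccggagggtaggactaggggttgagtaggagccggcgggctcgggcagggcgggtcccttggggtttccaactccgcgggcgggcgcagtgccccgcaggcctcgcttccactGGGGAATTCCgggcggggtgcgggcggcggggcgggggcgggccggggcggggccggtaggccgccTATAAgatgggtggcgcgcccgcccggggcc

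The stretch had a GC content of 73.6%, against a median of 58% over 35116 listed promoters. It held 8 matches of the GC box GGGCGG on either strand, which may overlap, and 42.6% of all promoters held at least 1. The NF-kB consensus was found on either strand in 5.21% of promoters and TATAA on the gene's strand in 13.6%. The TEAD motif GGAATG, which 11.9% of promoters held, and the AP-1 motif TGANTCA, which 6.57% held, were not found on either strand of SDC4, SDC1, SDC3, GPC1, GPC4 or GPC6, and SDC2 had no listed promoter. The motifs were chosen with the values of these genes known, and a match is a string of letters and not a shown binding site.

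SDC4 was the most abundant member per transcript length. In siControl it had 231, 254 and 267 TPM (the authors' length-scaled transcript levels) in replicates 1, 2 and 3, and its mean ranked 279 among 12185 protein-coding genes with at least 1 TPM. SDC1 followed with 29.7 ± 14.0 TPM (SD, n = 3), then SDC3 with 28.1 ± 3.63, SDC2 with 16.1 ± 11.4, GPC1 with 14.3 ± 4.92 and GPC6 with 5.02 ± 2.39. The SDC4 libraries lay above those of every other member, and those of GPC1 lay above those of GPC6. SDC1 and SDC3, SDC3 and SDC2, and SDC2 and GPC1 overlapped in their siControl libraries and did not differ beyond their spread. The mean of SDC4 was 8.45 times that of SDC1 in TPM. Over annotated exon length, normalized counts put SDC4 at 9.74 times the next member.

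**Figure D1:**
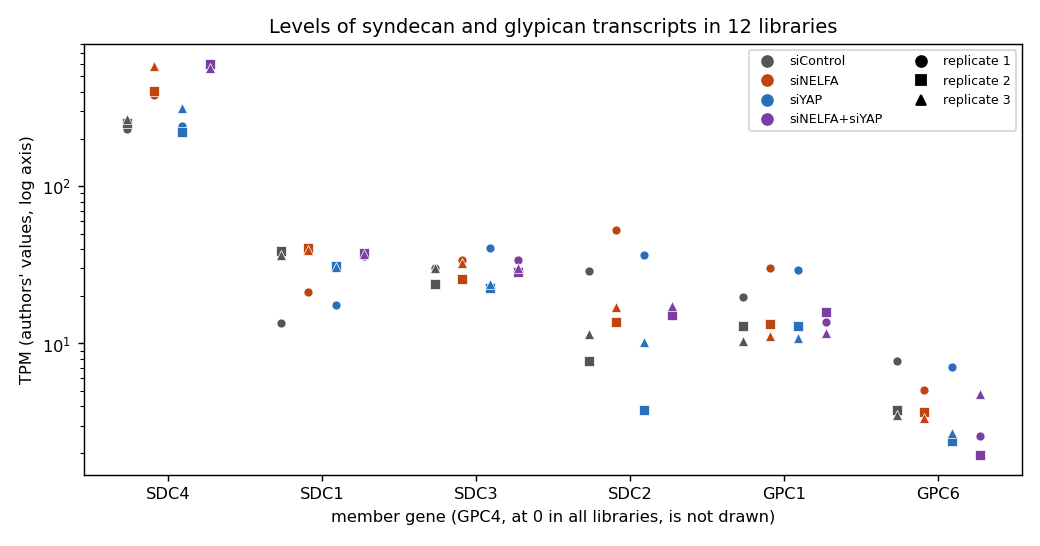
TPM (log axis) of the 6 detected members in each of the 12 libraries, coloured by siRNA group and shaped by replicate number. SDC4 sits between 220 and 604 TPM in all libraries, and the highest value of any other member is 52.9 TPM, for SDC2 in siNELFA replicate 1.

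SDC4 made up most of the syndecan transcripts in each group. Its share of the summed TPM of the 4 syndecans was 77.2 ± 1.08% in siControl and 78.1 ± 5.73% in siYAP (SD, n = 3 each). With siNELFA the share was 82.7 ± 4.56%, and with both siRNA pools 87.4 ± 0.625%. The summed syndecan level was 325 TPM in siControl, 331 TPM in siYAP, 548 TPM with siNELFA and 666 TPM in the double knockdown. The summed level of GPC1 and GPC6 was 19.4, 21.7, 22.2 and 16.8 TPM in the same order, of which GPC1 gave 74.6% to 81.7%.

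SDC4, which anchors integrin-based adhesions and binds protein kinase C alpha, was higher in every library that received siNELFA than in any siControl or siYAP library. Its normalized counts (TMM factors over the 12 libraries) were 6709, 7243 and 8564 in siControl replicates 1 to 3 and 13919, 13794 and 19827 in siNELFA. siYAP had 7325, 7194 and 9700, and the double knockdown had 19236, 19279 and 18992. The siNELFA and double libraries did not overlap with siControl or siYAP, whereas siYAP overlapped with siControl and the double overlapped with siNELFA. SDC4 was chosen for this rise. Of all genes, 6.04% were higher without overlap in siNELFA against siControl. In the double, 15.1% were against siControl and 13.9% against siYAP, and the share for siNELFA against siYAP was not taken. As a percentage of the siControl mean, siNELFA reached 211%, the double knockdown 255% and siYAP 108%. In bulk RNA, a change in the number of cells that express a gene and a change in its RNA per cell cannot be told apart.

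In edgeR, SDC4 had a log2 fold change against siControl of 1.09 (SE 0.20) with siNELFA and 0.12 (SE 0.19) with siYAP, and of 1.35 (SE 0.11) with both. The double knockdown stood 1.24 (SE 0.13) above siYAP and 0.28 (SE 0.15) above siNELFA. From the highest log2 fold change down, SDC4 was number 164 of 17727 genes with siNELFA, 164 of 17533 with both siRNA pools and 5985 of 17296 with siYAP. The comparisons against siControl share their control libraries. Over all genes, the median log2 fold change was 0.00 for siNELFA and -0.03 for the double knockdown. Without the libraries numbered 1, siNELFA gave 1.10, siYAP 0.11 and the double knockdown 1.29.

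The labels number the replicates but state no pairing. Libraries of siControl, siNELFA and siYAP with the same number were taken as matched, so that SDC4 could also be read within a number. The match of replicates 2 and 3 across groups rests on the shared numbers alone. The log2 ratio of siNELFA to siControl was 1.05, 0.93 and 1.21 in numbers 1, 2 and 3, and that of siYAP to siControl was 0.13, -0.01 and 0.18. SDC4 in the libraries numbered 1 was 0.849, 0.828 and 0.867 times the mean of replicates 2 and 3 in siControl, siNELFA and siYAP. An uncharacterised gene on the same strand inside SDC4 (ENSG00000275894) had 23 to 255 counts, and how reads shared by both were assigned is not given in the sources used here.

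**Figure D2:**
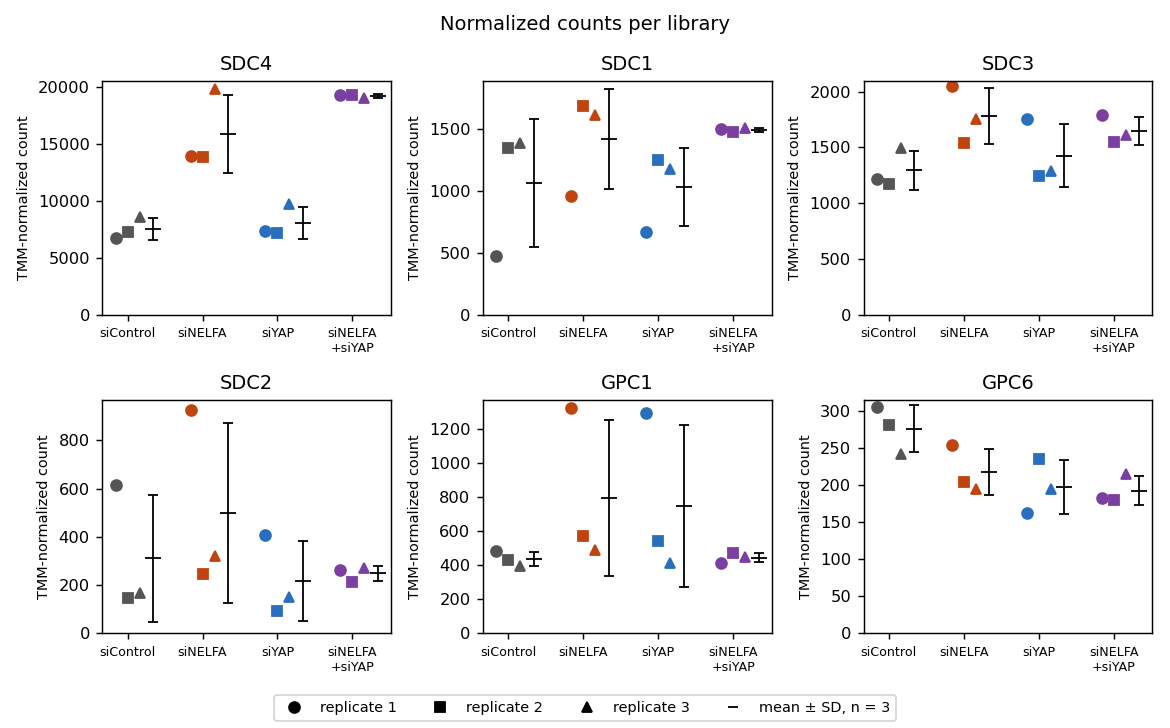
TMM-normalized counts per library of the 6 detected members (linear axes from 0), with replicate numbers as shapes and bars for the mean ± SD of 3 libraries. SDC4 is high in both groups with siNELFA, whereas SDC1, SDC2 and GPC1 have their replicate 1 values far from replicates 2 and 3 in at least 2 of the groups siControl, siNELFA and siYAP.

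SDC1 (ENSG00000115884, chr2:20200797-20225433, minus strand) is the syndecan of epithelial cells and binds integrins and growth factors. Its normalized counts were 471, 1342 and 1385 in siControl and 955, 1681 and 1614 in siNELFA. siYAP had 669, 1250 and 1178, and the double knockdown had 1496, 1471 and 1505. The 3 libraries numbered 1 outside the double knockdown were the lowest 3 of all, at 0.345, 0.580 and 0.551 times the mean of replicates 2 and 3. Groups overlapped for siNELFA and siYAP against siControl, whereas all 3 double libraries were above all siControl and siYAP libraries.

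Against siControl, SDC1 had a log2 fold change of 0.42 (SE 0.41) with siNELFA, -0.03 (SE 0.42) with siYAP and 0.49 (SE 0.36) with both, with adjusted p of 1.00, 1.00 and 0.502 by edgeR. Within numbers, the siNELFA ratio was 1.02, 0.32 and 0.22 on the log2 scale, and the siYAP ratio was 0.51, -0.10 and -0.23. Without the libraries numbered 1, SDC1 gave 0.28 (SE 0.10) with siNELFA, -0.15 (SE 0.10) with siYAP and 0.14 (SE 0.07) with both. Against siYAP, the double knockdown gave 0.52 (SE 0.22), with a nominal p of 0.0464 and an adjusted p of 0.314 by edgeR. Without siYAP replicate 1 this was 0.30 (SE 0.08), and the adjusted p of edgeR was 0.0180, the lowest of a range up to 0.651 over the alternatives.

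SDC3 (ENSG00000162512, chr1:30869466-30908758, minus strand) is best known from the nervous system. It had 1215, 1174 and 1494 normalized counts in siControl and 2049, 1542 and 1757 in siNELFA. siYAP had 1751, 1242 and 1290, and the double knockdown had 1789, 1546 and 1610. All libraries of both groups with siNELFA were above all siControl libraries, and siYAP overlapped with siControl.

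The log2 fold change of SDC3 was 0.47 (SE 0.18) with siNELFA, 0.15 (SE 0.21) with siYAP and 0.35 (SE 0.13) with both. By edgeR, siNELFA had a nominal p of 0.0368 and an adjusted p of 1.00, and the double knockdown a nominal p of 0.0348 and an adjusted p of 0.237. Blocking on the replicate number, edgeR gave SDC3 0.46 (SE 0.12) with siNELFA and an adjusted p of 0.0392, against a range from 0.0392 to 1.00 over the alternatives. Within numbers the siNELFA ratio was 0.75, 0.39 and 0.23 (log2), higher in 3 of 3. Without the libraries numbered 1, SDC3 gave 0.32 (SE 0.14) in siNELFA, with an edgeR adjusted p of 0.3504, and -0.06 (SE 0.13) in siYAP. In the double knockdown it gave 0.31 (SE 0.10) without siControl replicate 1, where its edgeR adjusted p was 0.0256 in a range from 0.0256 to 0.630.

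SDC2 (ENSG00000169439, chr8:96493813-96611790, plus strand) is the syndecan of mesenchymal cells. It had 617, 146 and 169 normalized counts in siControl and 926, 246 and 323 in siNELFA. Its counts were 407, 93.0 and 152 with siYAP, and 263, 214 and 271 with both siRNA pools. The libraries numbered 1 held 3.91, 3.25 and 3.32 times the mean of replicates 2 and 3 in siControl, siNELFA and siYAP, and 1.09 times in the double knockdown. These libraries numbered 1 held the highest 3 counts of the 12, and every comparison between groups overlapped.

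For SDC2 the log2 fold change was 0.70 (SE 0.70) with siNELFA, -0.51 (SE 0.71) with siYAP and -0.31 (SE 0.54) with both. Within numbers 1, 2 and 3, the siNELFA ratio was 0.58, 0.75 and 0.92, and the siYAP ratio was -0.60, -0.64 and -0.15 (log2). With the replicate block, edgeR gave 0.76 (SE 0.15) for siNELFA with an adjusted p of 0.0119, where the alternatives ran from 0.0119 to 1.00. For siYAP the blocked value was -0.46 (SE 0.18) and its edgeR adjusted p 0.539. With the libraries numbered 1 left out, SDC2 gave 0.86 (SE 0.20) in siNELFA with an edgeR adjusted p of 0.127, and -0.34 (SE 0.26) in siYAP with 0.996. Without siControl replicate 1, the double knockdown turned to 0.67 (SE 0.16) with an edgeR adjusted p of 0.00540, in a range from 0.00540 to 0.993. Against siYAP it was 0.19 (SE 0.49) with all libraries and 1.02 (SE 0.21) without siYAP replicate 1, where the edgeR adjusted p was 0.00540 in a range up to 0.994.

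GPC1 (ENSG00000063660, chr2:240435663-240468076, plus strand), a glypican that binds fibroblast growth factors, had 484, 428 and 398 normalized counts in siControl and 1320, 569 and 488 in siNELFA. Its counts were 1294, 540 and 415 with siYAP, and 415, 469 and 450 with both. The siNELFA libraries were all above siControl and above the double knockdown, but replicate 1 of siNELFA and of siYAP held 2.50 and 2.71 times the mean of the other two. GPC1-AS1, an antisense gene, had 0 to 6 counts.

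GPC1 had log2 fold changes of 0.87 (SE 0.38) with siNELFA, 0.79 (SE 0.42) with siYAP and 0.03 (SE 0.14) with both, with edgeR adjusted p of 1.00, 1.00 and 0.937. With the block, siNELFA gave 0.72 (SE 0.19) and an edgeR adjusted p of 0.0489, in a range from 0.0489 to 1.00, and siYAP gave 0.61 (SE 0.23) and 0.539. Without the libraries numbered 1, the values were 0.37 (SE 0.14) and 0.23 (SE 0.16), and 0.12 (SE 0.11) in the double knockdown. The edgeR adjusted p of GPC1 in siNELFA was then 0.2996. The siNELFA ratio within numbers was 1.45, 0.41 and 0.29, and that of siYAP was 1.42, 0.33 and 0.06 (log2), so that number 1 held the largest ratio in both.

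GPC6 (ENSG00000183098, chr13:93226807-94408020, plus strand), a glypican known from skeletal growth, was the detected member with the fewest TPM. It had 305, 280 and 242 normalized counts in siControl and 253, 204 and 195 in siNELFA. With siYAP it had 162, 235 and 194, and with both 182, 179 and 214. All libraries of siYAP and of the double knockdown were below all siControl libraries, and siNELFA overlapped with siControl.

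The log2 fold change of GPC6 was -0.34 (SE 0.22) with siNELFA, -0.47 (SE 0.24) with siYAP and -0.52 (SE 0.17) with both. The last had a nominal p of 0.0176 and an adjusted p of 0.182 by edgeR. Without siControl replicate 1 it was -0.43 (SE 0.15), with an edgeR adjusted p of 0.0452 in a range from 0.0452 to 0.545. Within numbers, GPC6 was lower in 3 of 3 for siNELFA (-0.27, -0.45 and -0.31) and for siYAP (-0.91, -0.25 and -0.32). In siYAP, replicate 1 had the lowest normalized count of GPC6 but the highest TPM, 7.10 against 2.39 and 2.68 in replicates 2 and 3. Without the libraries numbered 1, the value was -0.38 (SE 0.17) in siNELFA and -0.27 (SE 0.18) in siYAP.

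GPC4 (ENSG00000076716, chrX:133300103-133415489, minus strand), also a glypican, had 0 counts in all 12 libraries. Over a total of 179283017 counts this allows up to 0.0167 CPM, and 0.160 to 0.312 CPM in a single library (3 counts, counting error only). Of the other glypicans, GPC3 had 0 counts in every library, GPC2 at most 12 and GPC5 at most 8, so GPC1 and GPC6 were the glypicans detected above that level.

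**Figure D3:**
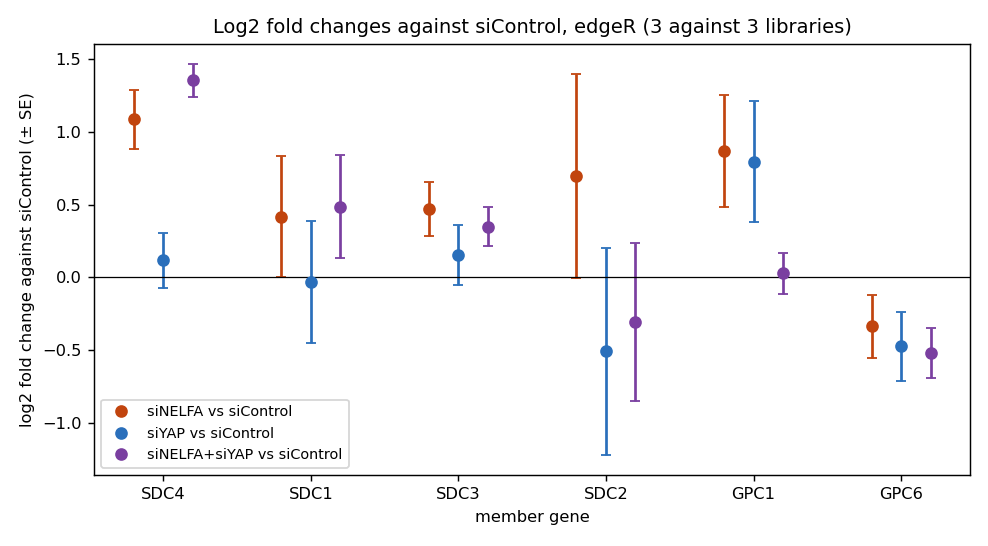
Log2 fold changes against siControl with standard errors (edgeR, 3 against 3 libraries) of the 6 detected members in the 3 knockdowns. SDC4 stands at 1.09, 0.12 and 1.35, GPC6 is below 0 in all 3 groups, and the standard errors of SDC2 reach 0.71.

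Counted over the 5 tested members in siNELFA, none passed an adjusted p of 0.05 by edgeR, where 0.00564% of 17727 genes did, and 1 passed a nominal p of 0.05, where 4.46% did. DESeq2 gave 0 past the adjusted p and 2 past the nominal p, where 13 and 834 of 32101 genes passed. With the replicate block, 3 of 5 passed the adjusted p, all of them higher, against 5.21% of all genes, and 4 the nominal p, against 20.2%. The block takes the match of replicates 2 and 3 across groups from the labels. SDC2, SDC3 and GPC1, the 3 called with the block, were also fitted without the libraries numbered 1. They stayed higher and passed the nominal p, as did 14.3% of all genes. None of the 3 then passed the adjusted p of edgeR (0.127, 0.3504 and 0.2996), which 0.0996% of all genes did. SDC3 and GPC1, 2 of the 5, were above siControl without overlap, against 6.04% of all genes.

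In siYAP, 0 of the 5 passed an adjusted p of 0.05 by edgeR (0.00578% of 17296 genes), and 0 passed the nominal p (1.3%). DESeq2 gave 0 past either, where 1 and 315 of 31898 genes passed. With the block, 0 passed the adjusted p, against 0.0173%, and 3 passed the nominal p, against 9.11%, namely SDC2 and GPC6 below and GPC1 above siControl. GPC6 was the 1 member below siControl without overlap, against 4.2% of all genes.

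In siNELFA+siYAP against siControl, 0 of the 5 passed an adjusted p of 0.05 by edgeR (0.428% of 17533 genes). Past the nominal p were 2 (18.5%), SDC3 above and GPC6 below. DESeq2 gave the same counts of 0 and 2, where 677 and 3337 of 32116 genes passed. Without siControl replicate 1, SDC2, SDC3 and GPC6 passed the adjusted p, 3 of 5, against 24.4% of all genes. SDC1 and SDC3 were above siControl without overlap, against 15.1% of genes, and GPC6 was below, against 14.6%.

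The double knockdown was also set against each single knockdown. Its libraries were named apart from those of the other groups and did not pair with them by number. A difference in culture or handling therefore cannot be told apart from the added siRNA pool, also against siControl. Against siYAP, where siNELFA was the added pool, 0 of 5 members passed the adjusted p by edgeR (0.035% of 17167 genes), and 1 passed the nominal p (15.5%). DESeq2 gave 0 and 2, where 337 and 2855 of 31923 genes passed. Without siYAP replicate 1, SDC1, SDC2 and SDC3 passed the adjusted p, 3 of 5 and all higher, against 16.5%. SDC1 was higher without overlap, where 13.9% of genes were. Against siNELFA, where siYAP was the added pool, 0 of 5 passed the adjusted p by edgeR (0.00573% of 17463 genes) and 0 the nominal p (6.62%). DESeq2 gave 0 and 2, where 29 and 1357 of 32110 genes passed. The largest differences were -0.99 (SE 0.47) for SDC2 and -0.83 (SE 0.36) for GPC1 on the log2 scale, with edgeR nominal p of 0.0694 and 0.0520. Without siNELFA replicate 1 they were -0.18 (SE 0.16) and -0.24 (SE 0.11), with edgeR nominal p of 0.286 and 0.0577. GPC1 was lower without overlap, where 7.89% of genes were. The interaction, which carries the same limit, compares the siNELFA effect with and without siYAP. By edgeR 0 of the 5 members passed its adjusted p (0% of 18525 genes). 1 member, GPC1, passed the nominal p, against 1.76% of genes, and lost it without siNELFA replicate 1 or without siYAP replicate 1.

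The genes whose pattern over the 12 libraries was most like that of SDC4 were CYB5R1, KIRREL, MAP1LC3B, DNAJB11 and TOR1B, with Pearson r of 0.983, 0.982, 0.978, 0.968 and 0.967 in log2 CPM over 12970 genes averaging at least 50 counts. None of these was among the 5 highest by Spearman's rho or over the 4 group means. For the other members the highest r were 0.991 for SDC1 with RELT, 0.986 for SDC2 with RAPGEF2, 0.959 for SDC3 with UNC50, 0.979 for GPC1 with TKT and 0.916 for GPC6 with HNRNPC. Between members, r was highest for SDC3 with SDC4 at 0.65 and lowest for SDC1 with SDC2 at -0.55, over 12 libraries that share their depth and replicate numbers.

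Genes that build, modify, shed or bind these proteoglycans were taken as lists of 90 genes, of which 69 passed the filter in siNELFA. Their median log2 fold change was 0.11, beside 0.00 for all genes tested, and 46 lay above 0 and 23 below it. By edgeR 0 passed the adjusted p and 7 the nominal p, all 7 of them higher, where 2.25% of all genes were called higher. With the block, 8 passed the adjusted p as higher and 1 as lower, against 2.76% and 2.45% of all genes. These 9, fitted without the libraries numbered 1, kept their direction and all passed the nominal p, as did 14.3% of all genes, but 0 passed the adjusted p of edgeR (0.0671 to 0.266), which 0.0996% of all genes did. In siYAP, 67 were tested, with a median of 0.11 beside 0.00 for all genes, and edgeR called 0 at the adjusted p (0.00578% of all genes) and 2 at the nominal p (1.3%). In the double knockdown, 34 of 67 lay above 0, with a median of 0.03 beside -0.03 for all genes, and 1 gene passed the adjusted p by edgeR (0.428% of all genes), with 16 higher and 5 lower at the nominal p (8.27% and 10.2% of all genes).

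Among enzymes that make the linker joining a chain to its core protein, 5 of 6 were tested, with a median of 0.13 in siNELFA and 0.53 in siNELFA+siYAP. B3GAT3, which adds the last sugar of the linker, gave 0.74 (SE 0.21) in siNELFA, with an adjusted p of 0.0198 by edgeR with the block and 0.155 without the libraries numbered 1, at 0.56 (SE 0.14). XYLT1, which starts the linker, had 0 counts in every library, but XYLT2, the other xylosyltransferase of the list, was at 18.5 TPM in siControl. XYLT2 gave -0.27 (SE 0.22) in siNELFA and -0.40 (SE 0.15) in siNELFA+siYAP. For heparan sulfate polymerisation, 4 of 5 genes had a median of 0.12 with siNELFA and -0.09 with both siRNA pools, and none passed the adjusted p. EXT1 and EXT2, the subunits of the polymerase, were at 175 and 60.0 TPM in siControl and had log2 fold changes of 0.11 (SE 0.15) and 0.21 (SE 0.17) in siNELFA.

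Of 14 genes that sulfate or epimerise heparan sulfate, 8 were tested and none passed the adjusted p. Their median was -0.13 with siNELFA and -0.31 with both, and NDST1 and HS2ST1, the most abundant in siControl, gave 0.16 (SE 0.29) and -0.18 (SE 0.44) in siNELFA. HS3ST2 had 0 counts in every library. The extracellular sulfatases SULF1 and SULF2 had at most 2 and 4 counts in any library, and heparanase, HPSE, was the 1 tested gene of the 4 that edit or degrade the chains, at 0.34 (SE 0.69) in siNELFA. Genes that supply sugar nucleotides and sulfate donors had medians of 0.04 and 0.14, and none of 7 passed the adjusted p.

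Chondroitin sulfate, the other chain that SDC1 and SDC3 can carry, had 14 of 15 genes tested, with medians of 0.10 in siNELFA and 0.31 in the double knockdown. CHPF2, a chondroitin polymerising factor, gave 0.93 (SE 0.21) in siNELFA and 0.93 (SE 0.12) in the double knockdown. In the double knockdown it passed with an adjusted p of 0.0412 by edgeR, and the alternatives ran from 8.25e-07 to 0.389. The call was lost when siControl replicate 2 was left out, and also when any 1 of the siNELFA+siYAP libraries was, at values between 0.92 and 0.94. With no library left out, it was lost with the replicate block (edgeR adjusted p 0.194) and in one fit of all 12 libraries (edgeR, 0.0905). It was also lost in limma on log2 TPM (0.112 and 0.0965), but held with RLE factors, DESeq2 and no filter beyond 1 count. In siNELFA CHPF2 passed with the block, at an edgeR adjusted p of 0.00273, and gave 0.71 (SE 0.15) and 0.114 without the libraries numbered 1.

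Of 7 genes listed for the release of these proteins from the cell, the 4 tested were the proteases ADAM10, ADAM17, MMP9 and MMP14. Their medians were 0.23 in siNELFA and 0.62 in the double knockdown. NOTUM, also of this list, had at most 6 counts in any library and was not tested. MMP14, a membrane-bound metalloprotease known to cleave syndecans, was at 204 TPM in siControl and gave 0.44 (SE 0.26) in siNELFA, with a blocked adjusted p of 0.0104 by edgeR. It gave 0.47 (SE 0.12) and an edgeR adjusted p of 0.155 when the libraries numbered 1 were left out. ADAM10, at 206 TPM, gave 0.10 (SE 0.51). Cytoplasmic partners of the syndecans, among them SDCBP (syntenin) and PDCD6IP (ALIX), had medians of -0.09 and -0.14, and none of 7 passed the adjusted p.

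Of 10 other proteoglycan core proteins, 8 were tested in siNELFA. All 8 fold changes lay above 0, as did 8868 of all 17727, with a median of 0.30, but only AGRN passed the nominal p by edgeR, and TGFBR3 and CSPG4 gave 0.02 each (SE 0.32 and 0.21). In the double knockdown 4 of 7 lay above 0 and the median was 0.03. AGRN and COL18A1, heparan sulfate proteoglycans of basement membranes, gave 0.82 (SE 0.24) and 0.74 (SE 0.42) in siNELFA, with blocked adjusted p of 0.0129 and 0.0297 by edgeR. Both kept their direction without the libraries numbered 1, at 0.47 (SE 0.12) and 0.36 (SE 0.13), with edgeR adjusted p of 0.150 and 0.266. In the double knockdown they gave 0.75 (SE 0.11) and 0.03 (SE 0.20). CD44, the most abundant gene of the list at 799 TPM in siControl, gave 0.33 (SE 0.21) in siNELFA.

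Of 12 ligands and receptors that bind heparan sulfate, 10 were tested, with medians of 0.19 in siNELFA and -0.18 in the double knockdown. In siNELFA, CXCL8 (interleukin-8) gave 1.52 (SE 0.49), THBS1 (thrombospondin 1) 0.83 (SE 0.30) and HBEGF (a heparin-binding EGF family ligand) 0.73 (SE 0.25), and FN1 (fibronectin) gave -0.50 (SE 0.55). With the block their adjusted p by edgeR were 4.88e-05, 0.00216, 0.00355 and 0.0115. With the libraries numbered 1 left out, CXCL8 gave 1.60 (SE 0.30), THBS1 0.69 (SE 0.15), HBEGF 0.78 (SE 0.13) and FN1 -0.42 (SE 0.13), with edgeR adjusted p of 0.0902, 0.118, 0.0671 and 0.213. In the double knockdown CXCL8 gave 1.49 (SE 0.34), HBEGF 0.76 (SE 0.16), THBS1 -0.22 (SE 0.16) and FN1 -0.75 (SE 0.42), and none of these passed the adjusted p. HGF had 0 counts in every library.

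**Figure D4:**
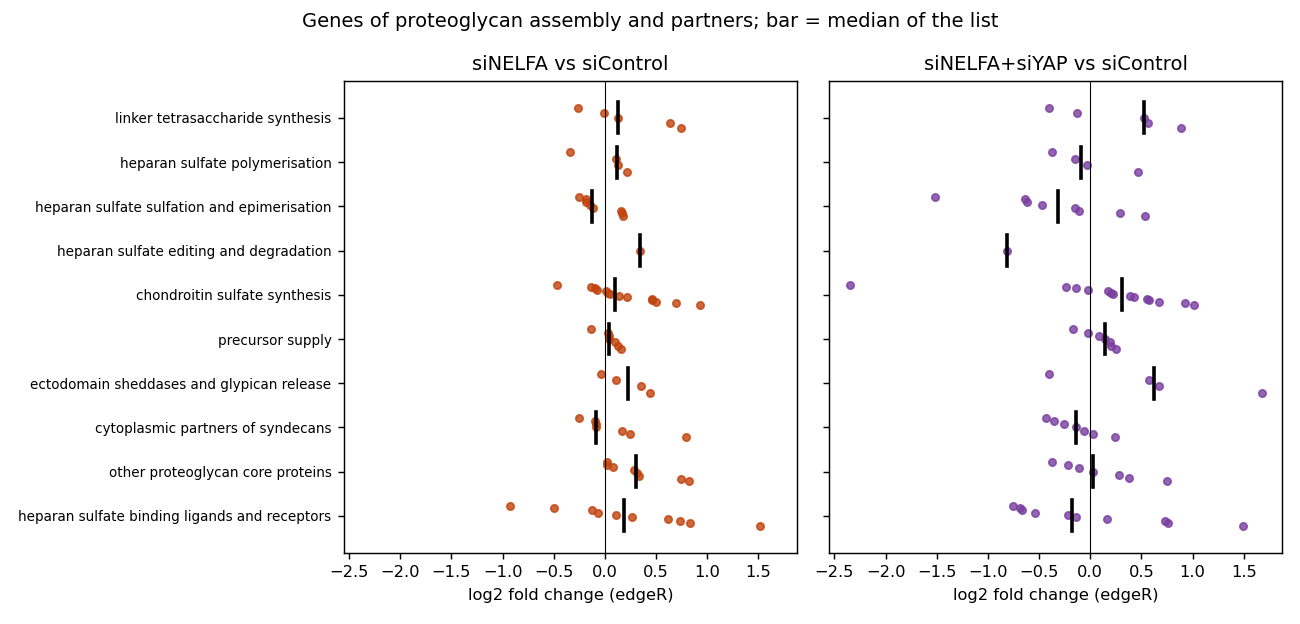
Log2 fold change (edgeR) of each tested gene of 10 lists around the proteoglycans, in siNELFA (left) and siNELFA+siYAP (right) against siControl, with a bar at each list's median. In siNELFA all 8 tested core proteins of the other proteoglycans lie above 0, and in the double knockdown the list medians range from -0.82, for the 1 tested gene of editing and degradation, to 0.62.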

How the data were processed

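RNA of 12 MDA-MB-231 libraries, 4 siRNA groups of 3, was sequenced by the authors from stranded, rRNA-depleted libraries. The reads were aligned by the authors with STAR to GRCh38 (Ensembl release 87) and assigned to genes with featureCounts, whose version and strand setting are not given in the sources used here. The deposited counts are unnormalized whole-number read counts for each gene. The deposited TPM values are the authors' own estimates, and 93 gene IDs stood on several lines and were summed. A deposited FPKM table was not used. The submitters' processing notes also name Cufflinks, cutadapt, FastQC and DESeq2.

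Groups were compared from the counts with edgeR 4.0.16 in R 4.3.3 (quasi-likelihood test, TMM factors, filterByExpr set to 10 counts per library, 15 in total and a share of 70% of libraries). Each fit took the 6 libraries of 2 groups without a block, and p-values were adjusted by Benjamini-Hochberg over all genes tested. An adjusted p under 0.05 was called. The standard error is the log2 fold change divided by the square root of F. The interaction was fitted on all 12 libraries. The members, lists and motifs were chosen with earlier results of these data known. Named are the members, list genes past an adjusted p of 0.05 with or without the block, otherwise up to 2 per list with the most TPM in siControl, list genes with 0 counts in all libraries, and, by Pearson r, 5 genes for SDC4 and 1 for each other member. GPC2, GPC5, SULF1, SULF2 and XYLT2 were named with their values in view. Tried as alternatives were RLE factors, DESeq2 1.42.0, no filter beyond 1 count, a joint fit of all 12 libraries, a block for the replicate number, limma 3.58.1 on log-transformed TPM (log2, pseudocount 1 or 0.1), and libraries left out. edgeR was first tested on simulated counts.

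For libraries that share a replicate number in the labels, departures from their group means correlated by 0.642 to 0.886 among siControl, siNELFA and siYAP over 12971 genes, and by -0.0523 to 0.0256 with siNELFA+siYAP. Pairing by number was thus accepted for siControl, siNELFA and siYAP but not for siNELFA+siYAP. Departures cancel out within a group, and the libraries numbered 1 stood apart. The check therefore shows that the libraries numbered 1 were alike, but cannot show that replicates 2 and 3 match across groups. That match was taken from the replicate numbers in the labels, which state no pairing. Coordinates are from GENCODE on GRCh38 and promoter sequences from RefSeq on GRCh38.p14, with Python 3.11.15 used for levels and matplotlib 3.10.9 for plots.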

Additional observations from a re-analysis of the deposited data

Results flagged for a closer look

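With all libraries included, the effect of siNELFA on GPC1 differed between cells with and without siYAP at a nominal p. Any difference of the siNELFA+siYAP libraries in culture or handling would enter that contrast too. The interaction, the siNELFA effect in siYAP cells minus that in cells without siYAP, was -1.63 (SE 0.61) on the log2 scale, with an edgeR nominal p of 0.0206 and an adjusted p of 1.00, where 0 genes passed the adjusted p and 1.76% passed the nominal p. With the replicate block it was -1.29 (SE 0.42) at a nominal p of 0.00882 by edgeR. This block also ties in siNELFA+siYAP, for which pairing by number was not accepted, so its p adds no weight. Without siNELFA replicate 1 it was -1.03 with an edgeR nominal p of 0.0656, and without siYAP replicate 1 it was -0.97 with an edgeR nominal p of 0.0670. Each of these fits kept the other high library, and the interaction was not fitted without both. In siNELFA and siYAP, replicate 1 held 2.50 and 2.71 times the mean GPC1 count of replicates 2 and 3. The part of those libraries, whose GPC1 counts exceed those of their group by more than the spread between replicates 2 and 3, was not tested.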

How the results depend on the processing

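Over the members' 258 log2 fold changes under other settings, 234 counted as unchanged, 12 turned sign and 8 newly passed an adjusted p of 0.05. Another 4, all of SDC4 in limma on TPM, moved by more than the spread between libraries. For the tested members, unchanged meant the same direction and side of the threshold. For SDC4 it meant a shift smaller than that spread, whatever its adjusted p. A small SDC4 value that turned sign was not counted as such, as in siYAP, from -0.033 to 0.22 with a library left out. Over 252 values with a library left out, the numbers were 227, 20 and 5, with none moved. For the double, the fit without the libraries numbered 1 equals that without replicate 1 of the other group, so it enters both counts. The cause of a change was not tested unless stated.

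In limma on log2 TPM, with a pseudocount of 1 and of 0.1, SDC4 was 0.83 and 0.84 in siNELFA and 1.21 and 1.22 in the double knockdown, where the median of all genes lay at -0.17 and -0.21, and at -0.11 and -0.13. With the same pseudocounts, SDC2 turned to 0.17 and 0.20 and GPC1 to -0.021 and -0.020 in the double knockdown, and SDC3 to 0.015 and 0.016 in the double against siNELFA. In siNELFA, SDC3 gave 0.13 under both, against 0.47 by edgeR on counts. GPC1 gave 0.24 and 0.25 there, against 0.87, so the size of both rises depended on the measure. The count of members past a nominal p was 0 under both in siNELFA, in the double and in the double against siYAP. Of all genes, 1580 and 1510 of 17726, 2794 and 2714 of 17532, and 2101 and 2052 of 17167 passed there.

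With the replicate block, SDC1 turned to 0.053 in siYAP and SDC2 to 0.010 in the double knockdown. Members past the adjusted p numbered 3 in siNELFA, and those past the nominal p 4 in siNELFA, 3 in siYAP and 1 in the double. Of all genes, 3587 of 17727, 1575 of 17296 and 2548 of 17533 passed the nominal p there. The pairing changed no other call of a member. Pairing by number was not accepted for siNELFA+siYAP, so blocked values that include that group rest on numbers that may not match. Genes past the adjusted p under the block numbered 924 in siNELFA, 3 in siYAP, 2 in the double and 1 in the double against siYAP.

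Without all libraries numbered 1 of the first 3 groups, SDC3 turned to -0.059 in siYAP, SDC2 to 0.67 in the double, and SDC1 to -0.14 and SDC3 to 0.0071 in the double against siNELFA. Members past the adjusted p numbered 3 in the double and 3 in the double against siYAP, and past the nominal p 4 in siNELFA and 3 in the double against siYAP. The nominal p was passed by 2576 of 18077 genes in siNELFA and 5327 of 17773 in the double against siYAP. Genes past the adjusted p then numbered 18 in siNELFA, 4531 in the double, 2937 in the double against siYAP and 228 in the double against siNELFA.

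DESeq2 put 2 members past the nominal p in siNELFA, 2 in the double against siYAP and 2 in the double against siNELFA. Of all genes, 834 of 32101, 2855 of 31923 and 1357 of 32110 passed there. The fit with no filter beyond 1 count gave 2, 2 and 2 in these comparisons and 1 in siYAP. Of all genes, it called 917 of 32101, 3408 of 31923, 1992 of 32110 and 430 of 31898. One fit of all 12 libraries gave 1 in siYAP, 1 in the double and 0 in the double against siYAP. Past the nominal p there were 734, 2640 and 2054 of 18525 genes. Genes past the adjusted p in siNELFA numbered 13 by DESeq2, 3 without the filter, 8 in the fit of all 12 libraries, and 5 and 6 by limma with pseudocounts of 1 and 0.1. In siYAP limma with a pseudocount of 0.1 gave 5. In the double they numbered 677, 381, 11 and 23 by DESeq2, without the filter and by both limma fits, in the double against siYAP 337, 222, 1 and 10, and in the double against siNELFA 29, 26, 2 and 6.

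Leaving out 1 library at a time gave 0.89 to 1.19 for SDC4 in siNELFA and 1.29 to 1.46 in the double. SDC2 ranged from -0.11 to 1.68 in siNELFA, -1.33 to 0.48 in siYAP, -0.65 to 0.67 in the double, -0.17 to 1.02 in the double against siYAP, -1.32 to -0.18 in the double against siNELFA and -1.46 to 0.33 in the interaction. SDC1 ranged from -0.38 to 0.20 in siYAP, -0.14 to 0.21 in the double against siNELFA and -0.12 to 0.46 in the interaction. SDC3 ranged from -0.023 to 0.26 in siYAP and -0.21 to 0.0071 in the double against siNELFA, GPC1 from -0.031 to 0.12 in the double and -1.09 to -0.24 in the double against siNELFA, and GPC6 from -0.15 to 0.10 in the double against siYAP. Members past the adjusted p ranged from 0 to 3 in the double and in the double against siYAP. Those past the nominal p ranged from 0 to 2 in siNELFA and in the double against siNELFA, 0 to 3 in the double and in the double against siYAP, and 0 to 1 in siYAP and in the interaction. Over all settings, genes past the nominal p ranged from 342 to 3587 in siNELFA, 125 to 1575 in siYAP and 204 to 908 in the interaction. In the double they ranged from 1878 to 6464, against siYAP from 1386 to 5327 and against siNELFA from 526 to 2639. With 1 library left out at a time, genes past the adjusted p ranged from 0 to 1 in siNELFA and in siYAP. They then ranged from 0 to 4531 in the double, 0 to 2937 in the double against siYAP and 1 to 228 in the double against siNELFA. CHPF2 in the double kept a value between 0.81 and 1.02 under all settings and passed the adjusted p under 6 of 14, with adjusted p from 8.25e-07 to 0.389. Among these, the fit without the libraries numbered 1 is the same as that without siControl replicate 1.

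Of the 5 genes most like SDC4, 0 remained among the 5 highest by Spearman's rho and 0 over the group means. At the depth of these libraries, SDC2, GPC1 and GPC6, with at least 88 counts each, could be compared, whereas GPC4 was not detectable.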
